A study of Mus musculus with 12 samples.

Results

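The mouse MHC class I genes described here are 9 heavy chains and the light chain that pairs with them. The rows were taken by gene symbol from the deposited count matrix, and all 10 were present among its 56748 genes and passed the filter on low counts. H2-K1 and H2-D1 are the 2 classical heavy chains. H2-Q4, H2-Q5, H2-Q6, H2-Q7, H2-Q10, H2-T22 and H2-T23 are the 7 non-classical ones, and B2m encodes the light chain, beta-2 microglobulin.

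Bone marrow-derived macrophages (BMDM) of female C57BL/6J wild-type mice were grown with 20 ng/mL M-CSF and polarized toward an M2-like state with 10 ng/mL IL4 for 48 hours. They were then kept for 72 hours under 1 of 4 conditions, and total RNA was sequenced from 3 biological replicates each. The untreated control received medium alone. The eGFP supernatant came from YUMM5.2, a mouse melanoma cell line, carrying an inducible eGFP vector, and the Ifnb1eGFP supernatant came from the same line carrying Ifnb1 and eGFP behind a tetracycline response promoter. Donor cells of both kinds had been given Dox at 1 μg/mL for 72 hours. The Ifnb1eGFP supernatant was brought to an IFNβ concentration of 1500 pg/mL, that of eGFP cells was diluted by the same ratio, and rIFNβ (recombinant IFNβ) was added at 1500 pg/mL. All 12 libraries share the bone marrow source, M-CSF and IL4, and supernatants can carry Dox and products of the tumor cells. The libraries are called exposed (Ifnb1eGFP supernatant and rIFNβ, 6 libraries) and unexposed (untreated control and eGFP supernatant, 6 libraries) below.

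A class I molecule is a heavy chain held together with B2m and a short peptide, most often cut from proteins inside the cell. H2-K1 and H2-D1 display such peptides to CD8+ T cells in nearly all nucleated cells. Non-classical heavy chains are less variable between mouse strains and have narrower roles. H2-T23 encodes Qa-1, a ligand of inhibitory receptors on NK cells, H2-T22 is recognised by some gamma delta T cells, H2-Q6 and H2-Q7 belong to the Qa-2 group, and H2-Q10 is known as a secreted form made mainly in the liver. Class I genes respond to type I interferon, and their promoters are known for an interferon response element that IRF proteins bind, next to a site for NF-κB and the SXY elements used by NLRC5.

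The promoters are shown because most of the heavy chains carry nearly the same short stretch. A RefSeq table (GRCm38.p6) gave a window from 250 bases before to 50 bases after the start site for 9 of the 10 genes. H2-Q5 had none. Each stretch below was found in GRCm39 by exact match and is written 5′ to 3′ along the gene's strand. It runs from 40 bases before the IRF-type motif to 20 bases after it, and the capitals mark the IRF-type motif (the later run) and, where present, the NF-κB-type motif (the earlier run).
H2-K1, chr17:34219383-34219451, minus strand: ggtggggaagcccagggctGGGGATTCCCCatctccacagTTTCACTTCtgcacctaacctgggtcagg
H2-Q4, chr17:35598400-35598468, plus strand: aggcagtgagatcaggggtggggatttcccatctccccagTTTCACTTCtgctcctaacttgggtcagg
H2-Q6, chr17:35643634-35643702, plus strand: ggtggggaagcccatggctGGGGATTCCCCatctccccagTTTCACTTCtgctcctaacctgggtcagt
H2-Q7, chr17:35657978-35658046, plus strand: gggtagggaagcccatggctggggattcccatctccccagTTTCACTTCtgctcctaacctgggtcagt
H2-Q10, chr17:35780791-35780859, plus strand: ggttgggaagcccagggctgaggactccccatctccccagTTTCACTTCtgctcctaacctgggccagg
H2-T22, chr17:36353796-36353865, minus strand: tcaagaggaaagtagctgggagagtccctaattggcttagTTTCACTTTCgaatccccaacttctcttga

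The motifs were searched on both strands by their letters. The shorter IRF-type motif, GAANNGAAA, was found in 6 of the 9 windows (H2-K1, H2-D1, H2-Q4, H2-Q6, H2-Q7 and H2-Q10) and in 7.52% of all 32851 promoter windows of the table. The longer one, GAAANNGAAA, was found in the other 3 (B2m, H2-T22 and H2-T23) and in 3.44% of all windows. It began at base −139 relative to the RefSeq start site in B2m, on the gene's strand, and at −124 in H2-T23 and −191 in H2-T22, on the opposite strand. The stretches of B2m, H2-D1 and H2-T23 overlap untranslated regions of GENCODE M39 transcripts that are annotated to start further upstream, so those 3 are not shown and their positions hold for the RefSeq start only. The NF-κB-type motif GGGGANTCCCC was found in H2-K1, H2-D1 and H2-Q6, and in 0.0487% of all windows. The Y box core ATTGG was found in 8 of the 9 windows, against 37.4% of all. These are matches of letters, and the binding of a factor was not measured. The class I windows are related in sequence, so they are not independent occurrences.

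The libraries held 31526034 to 45348457 counts. Of all genes listed, 30347 had at least 1 count and 15033 were tested. Pan-macrophage markers were abundant, and the 8 listed summed to 14400 to 18800 CPM (counts per 1000000 of the scaled library total) in unexposed libraries and 9818 to 10720 in exposed ones. Its members went both ways in both IFNβ comparisons by edgeR: Lyz2 (log2 fold change −1.59 between the supernatants and −1.44 for rIFNβ against untreated control), Itgam (−1.99 and −2.17) and Cd14 fell, Fcgr1 (3.85 and 4.46), Adgre1, Cd68 and Mertk rose, and Csf1r was not called. The 6 markers driven by IL4 summed to 743 to 1021 CPM, of which Mrc1 alone gave 609 to 839. Arg1 was at most 0.877 CPM and Ccl24 at most 0.195 in any library, and Cd163 fell by 1.54 and 1.52 on the log2 scale (adjusted p = 6.11e-06 and 7.20e-06 by edgeR). Chil3 went the other way, from 63.2–81.5 CPM in unexposed libraries to 106–129 CPM in exposed ones. Retnla had condition means of 55.2 to 63.4 CPM. The ranges of Retnla and of Mrc1 overlapped in both IFNβ comparisons. Of 6 melanoma markers Tyrp1 had 0 counts in all 12 libraries and 5 stayed at or below 0.2 CPM, with a summed level of 0.224 to 0.81 CPM. Summed levels of other cell types moved with IFNβ. From unexposed to exposed libraries the 3 NK cell markers went from 0.191–0.577 to 0–0.0758 CPM, the 4 dendritic cell markers from 1.22–1.61 to 0.273–0.43, the 4 neutrophil markers from 4.19–5.72 to 0.208–0.834, and the 3 fibroblast markers from 16.6–37.8 to 30.8–53.8, with Dcn and Pdgfra higher and Col1a1 lower. The first 3 of these sums were carried in unexposed libraries by 1 gene each, Klrb1c, Zbtb46 and S100a8, while Ly6g and Mpo were at 0 in all unexposed libraries and averaged 0.0427 and 0.104 CPM with rIFNβ. The T cell list was carried by Cd4, at 3.72 to 5.03 CPM in unexposed and 8.03 to 9.96 CPM in exposed libraries, while its other 4 markers stayed at or below 0.2 CPM, as did all 3 B cell markers. The part of other cells in the class I values was not tested. In bulk RNA, fewer cells of a type and less RNA per cell cannot be told apart.

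All 10 genes rose with IFNβ, whichever its source. With Ifnb1eGFP against eGFP supernatant 10 of 10 were higher at an adjusted p of at most 0.05 (edgeR's quasi-likelihood test, Benjamini-Hochberg over the genes tested), where 30.1% of all genes tested were higher and 25% lower. With rIFNβ against untreated control 10 of 10 were higher as well, where 30.7% of all were higher and 24.6% lower. The stricter thresholds of the study's methods (log2 fold change no lower than 2, adjusted p no higher than 0.01) were passed upward by 9 of 10 in each comparison, against 2.77% and 2.99% of all genes. H2-D1 missed them in the first comparison and B2m in the second. The lowest exposed library lay above the highest unexposed one for 10 of 10 genes in each comparison, against 32.4% and 36.4% of all genes. The median log2 fold change of the 10 genes was 3.13 and 3.46, and that of all genes tested 0.03 and 0.04. The median describes genes that share sequence and reads, and it was given no test.

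**Figure D1:**
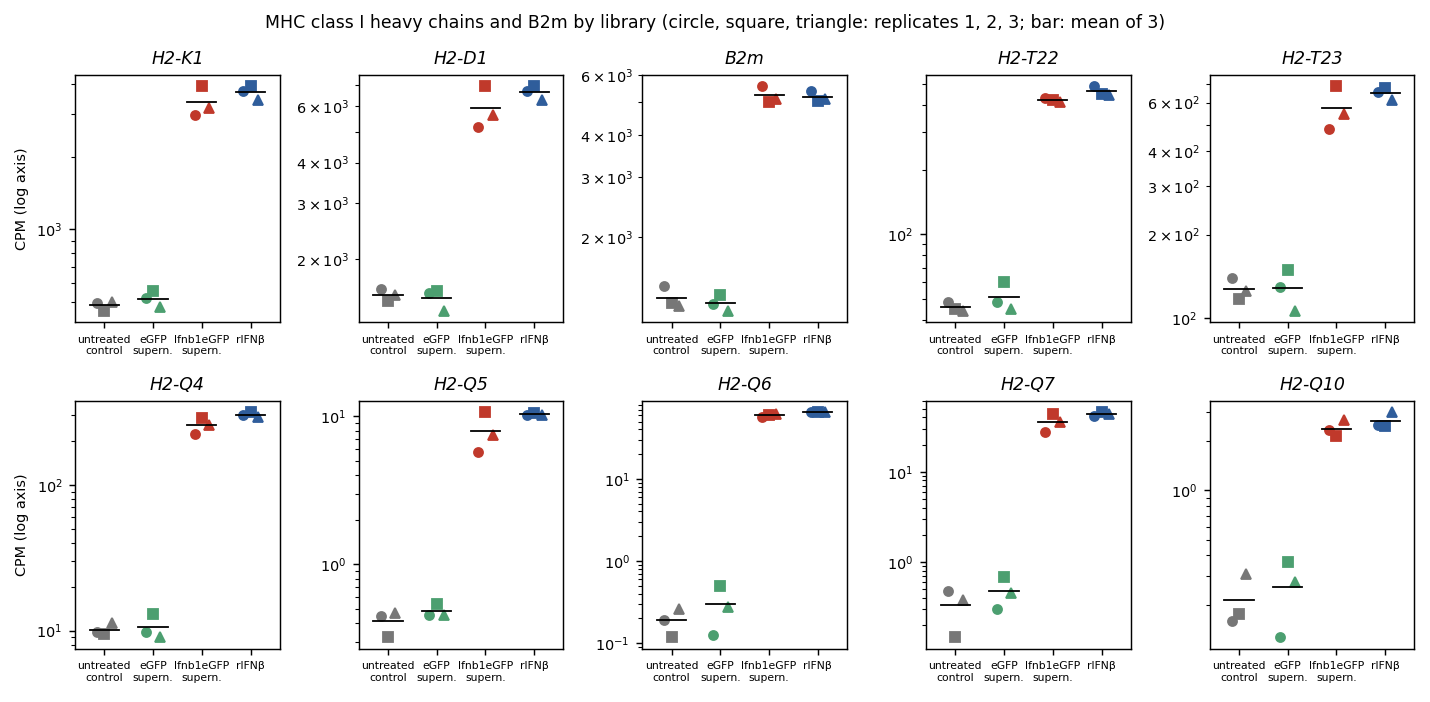
CPM (log axis) of each class I gene in the 12 libraries by condition, with circles, squares and triangles for replicates 1, 2 and 3 and bars for the mean of 3. In every panel the 6 exposed libraries lie above the 6 unexposed ones, by a distance that runs from about 4-fold for H2-D1 and B2m to over 100-fold for H2-Q6.

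H2-K1 (ENSMUSG00000061232, chr17:34214987-34219321, GRCm39) was measured at 495, 460 and 502 CPM in the untreated control and at 522, 556 and 476 CPM with eGFP supernatant. With Ifnb1eGFP supernatant it reached 2987, 3927 and 3183 CPM, and with rIFNβ 3749, 3911 and 3445 CPM. No exposed library came near the unexposed range. The log2 fold change was 2.70 ± 0.10 (SE; adjusted p = 2.57e-09 by edgeR) between the supernatants and 2.93 ± 0.10 (adjusted p = 1.37e-09) for rIFNβ against untreated control.

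H2-D1 (ENSMUSG00000073411, chr17:35481691-35486475) started from a higher level. It had 1618, 1485 and 1544 CPM in the untreated control and 1576, 1598 and 1381 CPM with eGFP supernatant. In the exposed libraries it had 5181, 6942 and 5626 CPM for Ifnb1eGFP supernatant and 6710, 6916 and 6250 CPM with rIFNβ. The groups were apart, and the log2 fold changes of 1.96 ± 0.10 (adjusted p = 2.56e-08) and 2.10 ± 0.10 (adjusted p = 1.35e-08) were the smaller ones of the classical pair.

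B2m (ENSMUSG00000060802, chr2:121977957-121983594) lies on another chromosome from the heavy chains. Its level was 1437, 1282 and 1256 CPM in the untreated control and 1276, 1356 and 1216 CPM with eGFP supernatant. It was 5568, 4986 and 5098 CPM once Ifnb1eGFP supernatant had been given and 5370, 5030 and 5100 CPM with rIFNβ. Both exposed conditions overlapped each other and stood clear of both unexposed ones. The log2 fold change was 2.02 ± 0.07 (adjusted p = 9.76e-10) and 1.96 ± 0.07 (adjusted p = 1.05e-09), which is 4.07-fold and 3.90-fold. These values sit at the log2 threshold of 2, and B2m fell on its other side between the supernatants with DESeq2 and with RLE factors.

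The H2-T genes were the most abundant of the non-classical heavy chains. H2-T23 (ENSMUSG00000067212, chr17:36340229-36345571) had 117 to 140 CPM in the untreated control, 106 to 148 with eGFP supernatant, 483 to 691 with Ifnb1eGFP supernatant and 612 to 679 with rIFNβ. It rose by a log2 fold change of 2.16 ± 0.14 (adjusted p = 2.19e-07) and 2.35 ± 0.15 (adjusted p = 1.03e-07), close to H2-D1 in size. H2-T22 (ENSMUSG00000056116, chr17:36348020-36353650) had 44.0 to 48.4 CPM in the untreated control, 45.05 to 59.99 with eGFP supernatant, 416 to 435 with Ifnb1eGFP supernatant and 447 to 493 with rIFNβ. Its log2 fold changes were 3.05 ± 0.10 (adjusted p = 7.80e-10) and 3.34 ± 0.10 (adjusted p = 3.67e-10), or 8.29-fold and 10.1-fold.

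The largest changes were those of H2-Q6 (ENSMUSG00000073409, chr17:35643777-35655332) and H2-Q7 (ENSMUSG00000060550, chr17:35658131-35662749), which were nearly silent without IFNβ. H2-Q6 had 6, 4 and 11 counts in the untreated control and 5, 20 and 11 with eGFP supernatant. With Ifnb1eGFP supernatant it had 2225, 2443 and 2845 counts and with rIFNβ 2195, 2888 and 2556. The fitted difference was 197-fold (95% interval 148 to 263, adjusted p = 1.77e-10) between the supernatants and 329-fold (241 to 448, adjusted p = 1.28e-10) for rIFNβ. H2-Q7 had 15, 5 and 16 counts in the untreated control and 12, 28 and 18 with eGFP supernatant, against 1086, 1746 and 1653 with Ifnb1eGFP supernatant and 1407, 2035 and 1707 with rIFNβ. It differed 73.5-fold (49.4 to 109, adjusted p = 5.62e-09) and 129-fold (84.5 to 198, adjusted p = 3.17e-09). These folds rest on 4 to 28 counts per unexposed library, and single libraries moved them. Without eGFP supernatant replicate 2 the log2 fold change of H2-Q6 between the supernatants was 8.19 in place of 7.63. That of H2-Q7 was 6.55 in place of 6.20. Without replicate 1 of that group both moved the other way, to 7.27 and 5.96. With each library left out, rIFNβ against untreated control gave 8.12 to 8.70 for H2-Q6 and 6.68 to 7.30 for H2-Q7.

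The other H2-Q genes rose less. H2-Q4 (ENSMUSG00000035929, chr17:35598586-35604274) was the only one of the group with a clear level before IFNβ, at 9.45 to 11.3 CPM in the untreated control and 9.01 to 12.9 with eGFP supernatant, and it reached 223 to 288 CPM with Ifnb1eGFP supernatant and 291 to 316 with rIFNβ. Its log2 fold changes were 4.60 ± 0.14 (adjusted p = 7.65e-10) and 4.90 ± 0.15 (adjusted p = 4.07e-10). H2-Q5 (ENSMUSG00000055413, chr17:35613102-35616776) had 11 to 22 counts in unexposed and 225 to 464 in exposed libraries, with log2 fold changes of 4.04 ± 0.24 (adjusted p = 7.51e-08) and 4.62 ± 0.25 (adjusted p = 2.99e-08). H2-Q10 (ENSMUSG00000067235, chr17:35780959-35785460) stayed the lowest of the family in exposed libraries, with 5 to 15 counts unexposed and 84 to 123 exposed, and rose by 3.20 ± 0.29 (adjusted p = 2.94e-06) and 3.58 ± 0.31 (adjusted p = 1.49e-06) on the log2 scale.

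**Figure D2:**
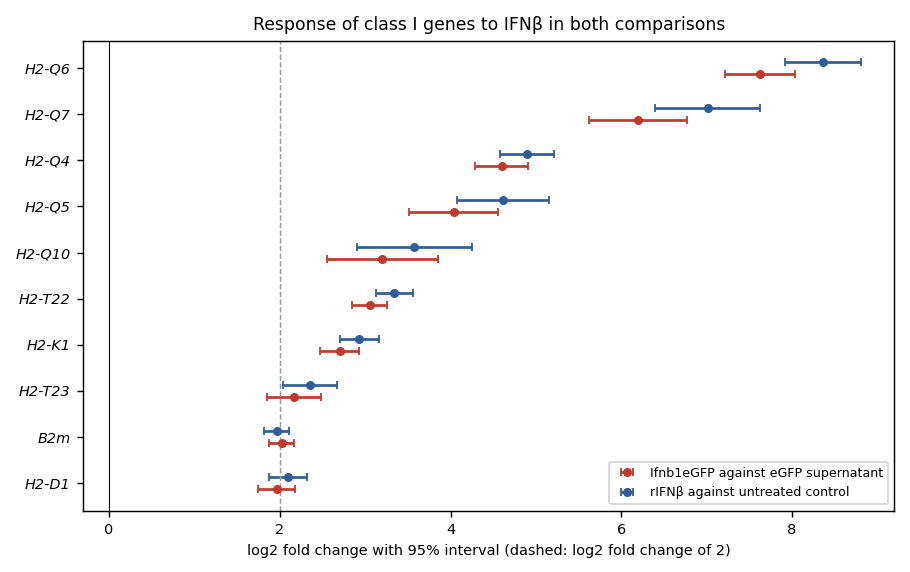
Log2 fold change of each class I gene with its 95% interval, for Ifnb1eGFP against eGFP supernatant and for rIFNβ against untreated control, with a dashed line at the study's threshold of 2. H2-Q6 and H2-Q7 lie at the top (7.63 and 6.20, 8.36 and 7.02), and the intervals of B2m and H2-D1 hold the value 2 in both comparisons.

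Members of the class I family share sequence, and RSEM divides a read that matches several transcripts between them. The expected counts of all 9 heavy chains were not whole numbers in 12 of 12 libraries, and those of B2m were whole in all 12. Among the 14257 genes with a mean of at least 10 counts, 22.6% had no whole value in any library. Coding sequences were 91.5% identical between H2-K1 and H2-D1, 95.4% between H2-Q6 and H2-Q7 and 96.6% between H2-Q5 and H2-Q7, while H2-T22 was 72.0% to 75.5% identical to the other heavy chains.

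How far this reaches single reads was described with windows of 75 bases along each gene's canonical transcript (GENCODE M39), asking whether the same bases occur in a transcript of any other gene. For B2m 0% of windows did, and for H2-K1 1.55%. The share was 6.85% for H2-D1, 8.46% for H2-Q4, 6.24% for H2-Q10 and 14.6% for H2-T23. It was 20.8% for H2-Q5, 18.3% for H2-Q6, 27.5% for H2-Q7 and 25.7% for H2-T22. H2-Q7 shared 13.8% with H2-Q6 and 13.6% with H2-Q5, and H2-T22 shared 19.9% with H2-T10, which is not among the 10 genes. H2-Q10 shared 1.19% with H2-D1, which had 204918 to 307522 counts in exposed libraries, against 84 to 123 for H2-Q10. How much of the H2-Q10 counts came from shared reads was not tested. With windows of 50 bases the shares rose to 8.79% for H2-K1, 40.2% for H2-Q7 and 44.2% for H2-T22, and stayed at 0% for B2m. The read length is not given in the sources used here.

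**Figure D3:**
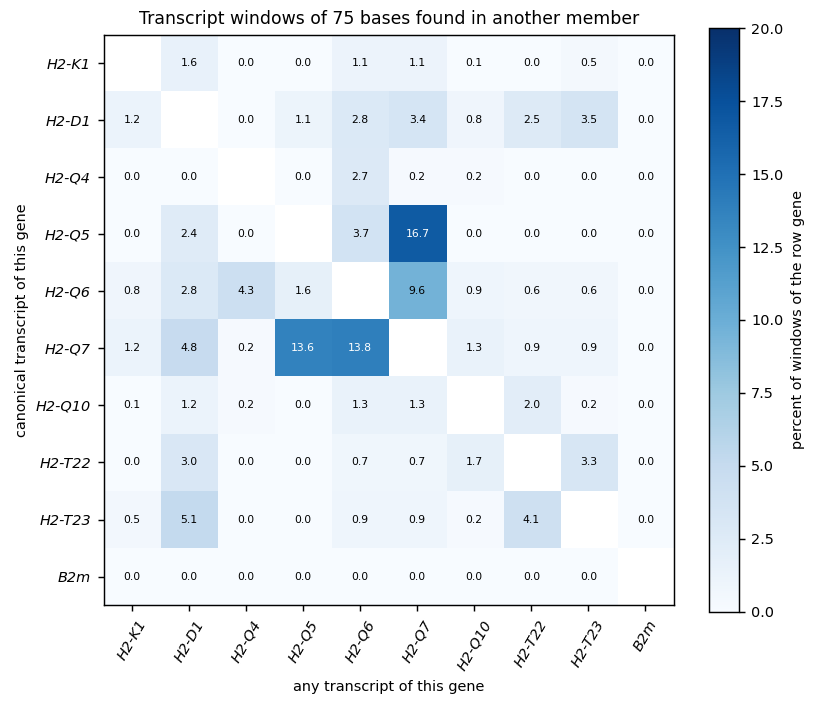
Percent of the 75-base windows of each row gene's canonical transcript that occur unchanged in any transcript of the column gene (color and printed value). The darkest cells lie between H2-Q5, H2-Q6 and H2-Q7 (up to 16.7%), and the row and column of B2m are 0.

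H2-Q6 and H2-Q7 have a further limit. In GRCm39 95.3% of the 75-base windows in the exons of H2-Q6 and 97.0% of those of H2-Q7 occur a second time in chr17:35667903-35777228, a segment between H2-Q7 and H2-Q10 in which GENCODE M39 lists 0 genes. The promoter windows of both genes also match chr17, the only chromosome searched for them, exactly 2 times. The second copy of the stretches printed above lies at chr17:35737524-35737592 for H2-Q6 and at chr17:35751909-35751977 for H2-Q7. Counts listed for these genes can therefore include transcripts of either copy, and the files do not tell the copies apart. Of the exonic windows of H2-Q5, 23.4% also occurred in this segment, and of those of the other heavy chains at most 4.31% (H2-D1). The sum of the H2-Q genes given below has the same limit.

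Sums over related rows do not depend on how reads were divided inside them. Reads that match genes in different sums, or genes outside the sums, could still be divided. Of the 75-base windows, H2-T22 shared 19.9% with H2-T10, which is in no sum. H2-T23 shared 5.08% and H2-Q7 4.85% with H2-D1. H2-K1 and H2-D1 summed rose on the log2 scale by 2.19 ± 0.10 (adjusted p = 1.06e-08) between the supernatants and 2.34 ± 0.10 (adjusted p = 5.70e-09) for rIFNβ against untreated control. The 5 H2-Q genes summed rose by 4.90 ± 0.15 (adjusted p = 7.75e-10) and 5.23 ± 0.15 (adjusted p = 4.17e-10), and H2-T22 and H2-T23 summed by 2.48 ± 0.12 (adjusted p = 1.26e-08) and 2.69 ± 0.12 (adjusted p = 6.09e-09). The order of the 3 sums was the same in both comparisons, with the H2-Q genes first and the classical pair last.

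Whether the genes moved by unequal amounts was tested with ratios inside each library, which no scaling can change. Each ratio was compared between the 6 exposed and 6 unexposed libraries by a two-sided exact permutation test within libraries with and without supernatant (400 relabellings, smallest possible p = 0.005), and p values were adjusted over 5 ratios. H2-D1 over H2-K1 had a log2 ratio of 1.52 to 1.71 (median 1.61) unexposed and 0.79 to 0.86 (median 0.82) exposed. The difference was −0.79 (p = 0.005, adjusted p = 0.00625, permutation test), so that the classical pair moved closer together. Per length of transcript, H2-K1 made up 29.1% ± 0.66 of the summed level of the pair in the untreated control and 30.9% ± 0.55 with eGFP supernatant. Its share was 42.7% ± 0.26 with Ifnb1eGFP supernatant and 42.2% ± 0.32 with rIFNβ (SD, n = 3 each).

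The non-classical genes fell on either side of H2-K1. The log2 ratio of H2-Q7 over H2-K1 rose from −11.6 to −9.67 (median −10.2) to −6.77 to −6.32 (median −6.48), a difference of 3.92 (p = 0.005, adjusted p = 0.00625, permutation test). H2-T23 over H2-K1 went the other way, from −2.17 to −1.83 (median −1.99) to −2.63 to −2.49 (median −2.52), a difference of −0.55 (p = 0.005, adjusted p = 0.00625, permutation test). H2-T22 over H2-K1 rose from −3.51 to −3.21 (median −3.38) to −3.22 to −2.78 (median −2.94), by 0.39 (p = 0.01, adjusted p = 0.01, permutation test), and was the only one of the 5 whose exposed and unexposed ranges overlapped. B2m over H2-K1 fell from 1.29 to 1.54 (median 1.34) to 0.34 to 0.90 (median 0.54), a difference of −0.82 (p = 0.005, adjusted p = 0.00625, permutation test). H2-K1 thus gained more than H2-D1, H2-T23 and B2m, and less than H2-Q7.

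**Figure D4:**
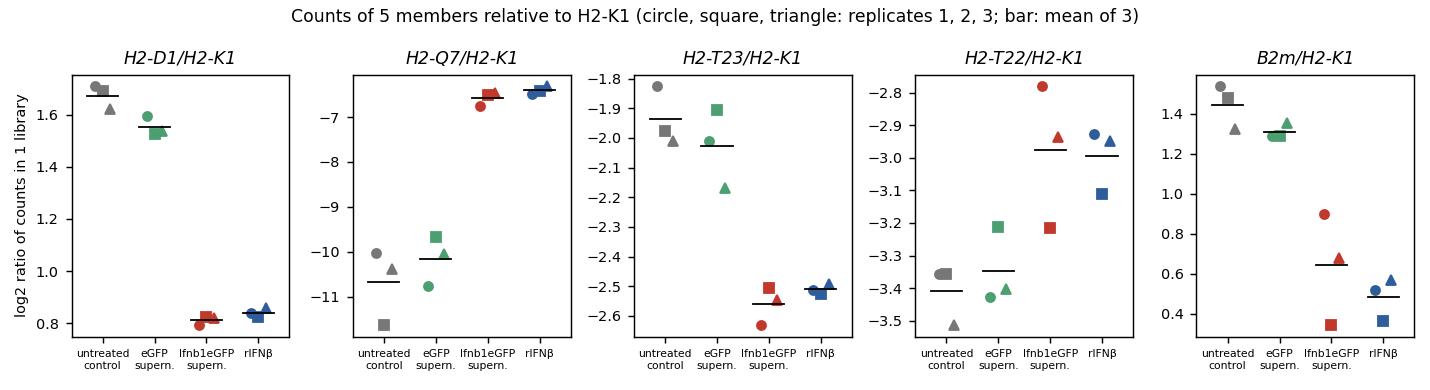
Log2 ratio of the counts of 5 genes to those of H2-K1 in each of the 12 libraries, with bars for the mean of 3. H2-D1, H2-T23 and B2m lie lower in exposed libraries and H2-Q7 higher without overlap, and H2-T22 lies higher with overlap between −3.22 and −3.21.

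Levels of different genes were set beside each other as CPM per kilobase of the canonical transcript. Comparisons between genes on this scale depend on the length used for each. The canonical transcript of H2-Q5 holds coding sequence only (998 bases), while that of H2-Q7 has 1497 bases, of which 1002 are coding. Other lengths were not tried. B2m was highest in each condition, followed by H2-D1, H2-K1, H2-T23, H2-T22 and H2-Q4, and no neighbours in this order overlapped within a condition. In the untreated control B2m had 1220 ± 90.3, H2-D1 732 ± 31.5, H2-K1 300.1 ± 13.9, H2-T23 86.3 ± 7.82, H2-T22 25.2 ± 1.27 and H2-Q4 5.65 ± 0.563 CPM per kilobase (SD, n = 3). With Ifnb1eGFP supernatant they had 4804 ± 285, 2795 ± 432, 2079 ± 306, 389 ± 72.5, 234 ± 5.18 and 142 ± 18.1. The 4 lowest genes changed places. Without IFNβ H2-Q5 led H2-Q7, H2-Q10 and H2-Q6, all at or below 0.537 CPM per kilobase, and the ranges of H2-Q7, H2-Q10 and H2-Q6 overlapped, as did those of H2-Q5 and H2-Q7 with eGFP supernatant. With Ifnb1eGFP supernatant the order was H2-Q6 (27.9 ± 1.37), H2-Q7 (23.8 ± 5.31), H2-Q5 (7.97 ± 2.52) and H2-Q10 (1.59 ± 0.180), of which only H2-Q6 and H2-Q7 overlapped, there and with rIFNβ.

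On the same scale the classical pair remained the bulk of the heavy chains. The non-classical genes made up 10.3% ± 0.36 of the summed heavy chain level in the untreated control, 10.5% ± 0.88 with eGFP supernatant, 14.5% ± 0.43 with Ifnb1eGFP supernatant and 14.8% ± 0.28 with rIFNβ (SD, n = 3). The H2-Q genes went from 0.567% and 0.600% unexposed to 3.58% and 3.78% exposed. The summed level of all heavy chains rose from 1150 ± 51.3 and 1159 ± 98.8 to 5700 ± 834 and 6353 ± 342 CPM per kilobase. B2m stood at 1.06 ± 0.054 and 1.02 ± 0.041 times that sum in unexposed conditions, and at 0.858 ± 0.163 with Ifnb1eGFP supernatant and 0.750 ± 0.047 with rIFNβ. The 10 genes together took 0.354% and 0.348% of all counts in unexposed conditions and 1.59% and 1.72% in exposed ones. These shares are descriptions and had no test of their own.

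**Figure D5:**
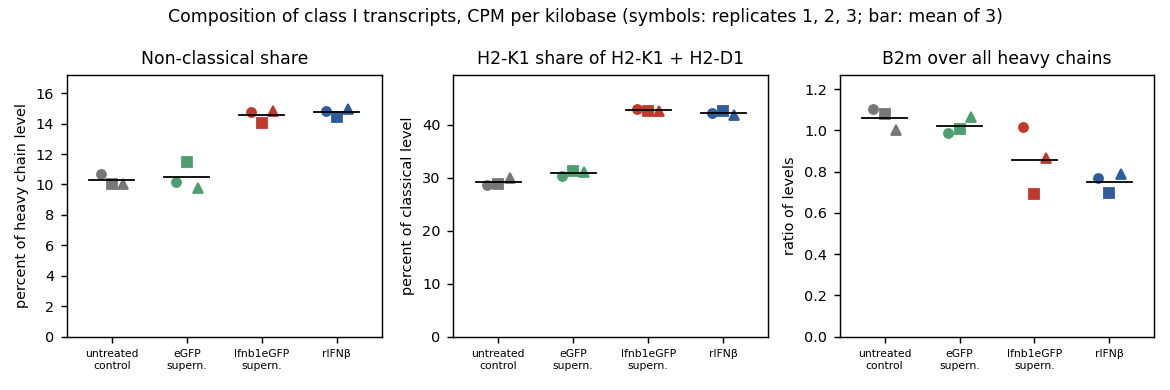
Share of the non-classical genes in the summed heavy chain level, share of H2-K1 in the classical pair, and B2m level over the summed heavy chain level, each per library from CPM per kilobase, with bars for the mean of 3. Both shares lie higher in the 6 exposed libraries, and the B2m ratio of 1 Ifnb1eGFP library (1.02) reaches the unexposed range.

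The source of IFNβ made no difference that the test called. Between Ifnb1eGFP supernatant and rIFNβ 0 of 10 genes passed an adjusted p of 0.05 by edgeR, 0 had an unadjusted p under 0.05 and 0 were called by DESeq2, where 0.16% of all genes were called in either direction. Log2 fold changes ran from −0.37 (H2-Q5) to 0.01 (B2m), 9 of 10 lay below 0, and the 95% intervals reached from −0.76 to 0.36 over the 10 genes. For H2-Q4, H2-Q6 and H2-T22 all 3 Ifnb1eGFP libraries lay below all 3 rIFNβ libraries, which is 3 of 10 genes where 12.8% of all had groups apart in either direction. The libraries with Ifnb1eGFP supernatant were unequal for some genes. The coefficient of variation there was 14.7% for H2-K1, 15.5% for H2-D1, 18.6% for H2-T23, 22.4% for H2-Q7 and 31.6% for H2-Q5, with replicate 2 the highest for 6 of the 10 genes, while it was 2.21% for H2-T22, 4.91% for H2-Q6 and 5.93% for B2m. Without replicate 2 of that group H2-D1 (−0.29, adjusted p = 0.0407 by edgeR) and H2-Q5 (−0.64, adjusted p = 0.0326) were called lower with the supernatant than with rIFNβ.

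Supernatant without IFNβ gave no called difference from the untreated control. Between eGFP supernatant and untreated control 0 of 10 genes passed an adjusted p of 0.05 by edgeR, 0 had an unadjusted p under 0.05, and 0 were called by DESeq2, where 0.299% of all genes were called. The groups overlapped for all 10 genes, against 15.5% of all genes with groups apart. Log2 fold changes ran from −0.05 (B2m) to 0.61 (H2-Q6), and the intervals were widest for the near-silent H2-Q genes, up to 1.54 for H2-Q7. All 10 genes were highest in replicate 2 within the eGFP supernatant group, a pattern noticed after the values were seen. Without that library the value of H2-Q6 was 0.05 and that of H2-Q7 0.18.

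A test of whether the IFNβ effect differed with and without supernatant called 0 of 10 genes by edgeR and 0 by DESeq2, and 0% of all genes tested. H2-T22 alone had an unadjusted p under 0.05 (log2 difference −0.29, adjusted p = 0.926 by edgeR), and 9 of 10 genes had a smaller rise between the supernatants than for rIFNβ against untreated control. For H2-Q6 the difference was −0.73 with a 95% interval of −1.69 to 0.22, so that unequal effects of that size could not be told from none. Without replicate 2 of the eGFP supernatant it was −0.17 for H2-Q6, and −0.16 for H2-T22.

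Other class I-type genes moved less uniformly. Of 16 listed, H2-Q9 and H2-Bl had no row under these symbols, and 9 of the 14 with a row were tested. Between the supernatants 5 were higher and 2 lower, with a median log2 fold change of 0.47, where 30.1% of all genes were higher and 25% lower. For rIFNβ against untreated control 7 were higher and 2 lower, with a median of 0.60, where 30.7% of all were higher and 24.6% lower. H2-M3, which presents peptides that begin with formylmethionine, rose by 1.93 ± 0.06 (adjusted p = 6.57e-10) and 2.05 ± 0.06 (adjusted p = 3.67e-10). H2-T10, the close relative of H2-T22, rose by 2.98 ± 0.12 (adjusted p = 4.22e-09) and 3.02 ± 0.12 (adjusted p = 3.28e-09), nearly as H2-T22 did, and the shared windows mean that their reads could be divided either way. H2-M2 fell by 1.96 ± 0.15 (adjusted p = 6.19e-07) and 1.23 ± 0.15 (adjusted p = 2.27e-05) on the log2 scale. The largest rise of this list was that of H2-T24, with log2 fold changes of 3.11 and 3.61. It had 5.09 to 10.4 CPM in the untreated control and 6.00 to 17.6 with eGFP supernatant. With Ifnb1eGFP supernatant it had 83.7 to 99.6 CPM, and with rIFNβ 85.9 to 95.4.

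Of 13 genes that supply and load peptides, 10 were higher and 3 lower in each comparison, with a median log2 fold change of 1.08 and 1.21, against the same 30.1% and 30.7% of all genes higher and 25% and 24.6% lower. Tap1, part of the transporter that brings peptides into the endoplasmic reticulum, rose by 2.63 ± 0.22 (adjusted p = 1.57e-06) and 3.17 ± 0.23 (adjusted p = 3.70e-07). Psmb8, a catalytic subunit of the immunoproteasome, rose by 1.84 ± 0.08 (adjusted p = 8.46e-09) and 1.99 ± 0.08 (adjusted p = 4.21e-09), and Psme1, part of the proteasome activator PA28, 2.47-fold (95% interval 2.20 to 2.77, adjusted p = 6.13e-08) and 2.68-fold (2.39 to 3.00, adjusted p = 2.76e-08). The 3 that fell, Calr, Canx and Pdia3, encode general folding helpers of the endoplasmic reticulum, and Calr fell by 0.96 ± 0.04 (adjusted p = 4.59e-09) and 1.05 ± 0.04 (adjusted p = 2.20e-09) on the log2 scale.

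Of 10 regulators of class I transcription 7 were higher and 1, Rfxap, lower in each comparison, with a median log2 fold change of 1.13 and 1.20, where 30.1% and 30.7% of all genes were higher and 25% and 24.6% lower. Nlrc5, the transactivator of class I promoters, rose by 2.28 ± 0.19 (adjusted p = 1.12e-06) and 2.74 ± 0.19 (adjusted p = 2.67e-07). Irf1 rose by 1.71 ± 0.15 (adjusted p = 1.63e-06) and 1.69 ± 0.15 (adjusted p = 1.62e-06), and Irf2, which binds the same element, by 0.75 ± 0.04 (adjusted p = 6.25e-08) and 0.70 ± 0.04 (adjusted p = 1.02e-07). Rfxank and Relb did not pass the test in either comparison, with log2 fold changes of 0.01 and 0.09 between the supernatants.

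The tested genes most like H2-K1 over the 12 libraries, by Pearson's r of log2 CPM, were Wipf1 (0.998), Psmb8 (0.998) and Nudt9 (0.997). Those most like H2-Q7 were Tlr9 (0.997), Mxd1 (0.997) and Dbndd2 (0.996), and those most like B2m were Creb5 (0.999), Prpf38a (0.999) and Samhd1 (0.999), the last a dNTP hydrolase. The 12 libraries fall into exposed and unexposed sets, and 650, 500 and 755 tested genes had an r above 0.98 with H2-K1, H2-Q7 and B2m, so these values describe a likeness that many genes shared.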

How the data were processed

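Bulk RNA sequencing of M2-like BMDM was analysed in 12 libraries, 3 for each of 4 conditions given by the sample titles. The authors prepared stranded total RNA libraries (TruSeq), aligned reads with RSEM 1.3.3 and deposited expected counts per Ensembl gene without normalization. Their genome is named GRCm39 mm10, the names of different builds. Positions given here are those of GRCm39 with GENCODE M39. All columns belonged to the series (0 left over). Because 12% of the values were not whole, expected counts were rounded to integers. RSEM splits reads that match several genes, which can move counts between class I genes.

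Counts were tested in R 4.3.3 with edgeR 4.0.16 (filterByExpr, TMM factors, quasi-likelihood F test, a single model of condition for the 12 libraries) and adjusted by Benjamini-Hochberg over 15033 genes. CPM uses the TMM-scaled total. A prior count of 2 went only into the log2 CPM behind the correlations, and fold changes are those of the fitted model without it. The SE is the log2 fold change divided by the root of F, and intervals cover 95%. Scripts were tested on simulated counts. Replicate pairs of a condition differed by more than counting noise (chi-square per degree of freedom 5.34 to 54 over 12 pairs). With 31526034 to 45348457 counts per library, genes near 10 counts are the least precise. Ratios were tested by exact permutation. Shared windows, coding identity (Biopython 1.88) and motifs were computed in Python 3.11.15.

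The members, the lists and the tests were chosen with earlier results of these data known. The text names all 10 members, the 3 genes of each related list with the smallest adjusted p between the supernatants, Tap1, Nlrc5 and Irf1, and the 3 genes most like H2-K1, H2-Q7 and B2m. H2-T24, Rfxap, Rfxank, Relb, Canx, Pdia3 and the marker genes were picked with their values in view. The analysis was repeated with DESeq2 1.42.0, with RLE factors, without the low-count filter, with the replicate number as a block, with only the compared conditions in the model, with unrounded ratios and with each library left out in turn, and related rows were also summed.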

Additional observations from a re-analysis of the deposited data

How the results depend on the processing

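With IFNβ against no IFNβ, all 10 genes, the 3 sums and the 5 ratios kept their direction under every alternative run, and all calls held except that of H2-T22 over H2-K1. With the replicate number as a block that ratio kept its value of 0.39 with p = 0.0625 (exact sign flips within same-numbered pairs), and the block changed no other call. Same-numbered libraries deviated together in all 18 pairs, though weakly (Pearson r across genes 0.0582 to 0.252, 13 of them over 0.1). In every other condition 11 libraries were closest to their own number. The sources used here do not say what a number marks, so the main tests did not treat the libraries as paired. The number of genes past the study's thresholds between the supernatants was 8 to 10 with each library left out, and 8 with DESeq2.

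Between Ifnb1eGFP supernatant and rIFNβ, leaving out each library gave 0 to 2 genes called lower, −0.28 to −0.0681 for the sum of H2-K1 and H2-D1 (adjusted p = 0.0427 by edgeR without Ifnb1eGFP replicate 2) and −0.0314 to 0.0465 for B2m. Between eGFP supernatant and untreated control, values near 0 changed sign without being called. H2-D1 was 0.002 without the filter, H2-T23 −0.0059 with the block, and the sum of H2-K1 and H2-D1 −0.0038 with the block and −0.0009 with only the compared conditions. With each library left out the range was −0.067 to 0.0353 for H2-D1, −0.12 to 0.15 for H2-Q4, −0.13 to 0.61 for H2-Q10, −0.11 to 0.13 for H2-T23, −0.0886 to 0.0142 for B2m, −0.041 to 0.0632 for the sum of H2-K1 and H2-D1, −0.0951 to 0.19 for the H2-Q sum and −0.0711 to 0.16 for the H2-T sum. The cause of these shifts was not tested. Depth limits the near-silent H2-Q5, H2-Q6, H2-Q7 and H2-Q10 in unexposed libraries most.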
